A study of Homo sapiens with 4 samples.

Results

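The 38 genes described here encode the machinery that folds, inspects and removes proteins in the endoplasmic reticulum (ER), together with the sensors and transcription factors of the unfolded protein response (UPR). They were chosen by name from their known roles, by a rule that uses no measured value, although earlier results of these data were known. All 38 were among the 60623 genes of the count files, and 37 of the 17058 genes that passed the filter on low counts belonged to them. DERL3 was the exception, with 4 and 0 counts in libraries 1 and 2 of shControl and 1 and 0 counts in libraries 1 and 2 of shYEATS2. Lists of 4 values below keep this order.

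The libraries came from BICR10, an established head and neck cancer (HNC) cell line. Cells carried either a lentiviral control hairpin (shControl, 2 libraries) or lentiviral hairpin RNA against YEATS2 (shYEATS2, 2 libraries), and both groups were selected with puromycin. YEATS2 encodes a reader of acylated histone tails, and the comparison asks which transcripts differ once it is silenced. The labels do not state which hairpin against YEATS2 was in which library, nor do they say that the libraries of a group came from separate cultures, so the p-values measure only the spread between these libraries.

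Secreted and membrane proteins enter the ER through the SEC61 channel, where BiP and its partners hold them in a foldable state, calnexin and calreticulin bind their glycans, and protein disulfide isomerases join their cysteines. Chains that fail to fold are passed back to the cytosol and destroyed, a route called ER-associated degradation (ERAD). When unfolded chains accumulate, 3 sensors in the ER membrane respond: IRE1 (gene ERN1) splices the XBP1 message, ATF6 is cut to free a transcription factor, and PERK slows translation and raises ATF4. Cells that secrete much protein, collagen included, depend on this machinery.

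Silencing of YEATS2 was checked first. YEATS2 (ENSG00000163872) measured 66.1, 66.7, 29.2 and 29.1 CPM (counts scaled to library size, here with the TMM factors of edgeR). The level in shYEATS2 was 43.95% of that in shControl (log2 fold change of -1.19, SE 0.08, adjusted p = 3.6e-21, edgeR's quasi-likelihood test, adjusted by the Benjamini-Hochberg method). Total counts on genes ranged from 39824898 to 47297970 in shControl and from 11334133 to 24072396 in shYEATS2, so depth and condition cannot be told apart. Among cell type markers, the 8 epithelial genes summed to 135 CPM in shControl and to 78.2 to 84.4 CPM in shYEATS2. Most of these sums was KRT18, at 110, 111, 78.2 and 72.3 CPM in the 4 libraries, so they say little about the other genes. KRT5 measured 16.4, 15.0, 1.03 and 1.36 CPM (log2 fold change of -3.78, SE 0.18). Of the 6 tested, 5 were lower and 1 was higher, CDH1, at 0.353, 0.318, 2.84 and 2.12 CPM. TP63 and KRT17 had too few reads to be tested. The 6 fibroblast genes, led by COL1A1 and COL1A2, summed to 6169 to 6244 CPM in shControl and to 1985 to 2107 CPM in shYEATS2, and the 5 tested were all lower. The 4 endothelial genes summed to 35.5 to 36.4 and 18.6 to 19.6 CPM, with 1 of the 2 tested lower. The 4 immune genes summed to at most 0.17 CPM in any library and none was tested. The part that these levels, the collagens included, had in the results below was not tested. In bulk RNA, fewer cells of a kind and less RNA per cell cannot be told apart.

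The ER genes did not move as a block. The BiP gene HSPA5, the UPR genes ERN1 and XBP1 and the ERAD genes HERPUD1 and DERL1 were higher in shYEATS2, while most of the lectin and disulfide folding genes were lower. Of the 37 tested genes, 15 were lower (40.5%), 9 were higher (24.3%) and 13 were not called at an adjusted p of 0.05 (edgeR's quasi-likelihood test). Over all 17058 tested genes the background was 23.6% lower and 22.6% higher. The share of higher calls was therefore near the background and the share of lower calls was above it. Their log2 fold changes had a median of -0.10 (quartiles -0.32 and 0.11), beside -0.01 (quartiles -0.31 and 0.32) for all tested genes.

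The size of the changes differed by direction. The 9 higher genes ran from 0.20 to 1.27 on the log2 scale with a median of 0.72, whereas the 15 lower genes ran from -0.58 to -0.19 with a median of -0.39. A change of more than 0.5 was found for 6 of the 9 higher genes and for 2 of the 15 lower ones. Over all called genes the medians were 0.54 for 3857 higher genes and -0.46 for 4019 lower genes. Most higher calls among all genes therefore also passed 0.5, and most lower calls did not. For 19 of the 37 genes the 2 shYEATS2 values were under both shControl values, for 13 they were over both, and for 5 the groups overlapped. Among all tested genes these shares were 36.3% below and 35.3% above.

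The counts of lower and higher calls depended on the scaling, among the ER genes and among all tested genes alike. With library totals in place of TMM factors, 10 of the 37 genes were lower and 14 higher, against 15.0% lower and 31.9% higher of all tested genes, and the median of all genes moved from -0.01 to 0.13. With DESeq2, 14 were lower and 8 higher, against 16.5% and 13.9% of all genes that DESeq2 gave an adjusted p. Without each library in turn, 13 to 17 of the genes were lower and 7 to 9 were higher. The medians also differed between the shYEATS2 libraries and were -0.04 and -0.03 for shYEATS2 1 against each shControl library and -0.19 for shYEATS2 2 against either.

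**Figure D1:**
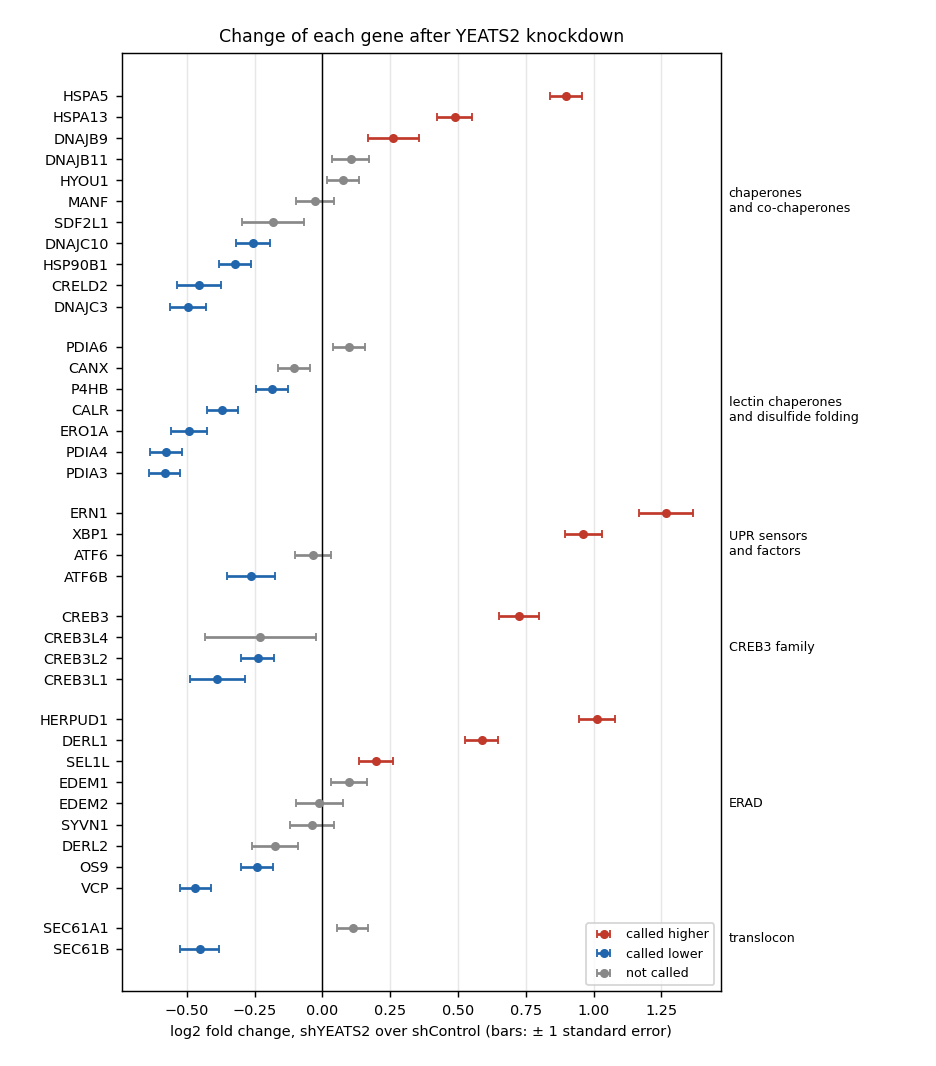
Log2 fold change (shYEATS2 minus shControl, TMM-scaled) of the 37 tested genes, grouped by role, with bars of 1 SE from edgeR's quasi-likelihood fit and colours for the call at an adjusted p of 0.05. ERN1 at 1.27 and HERPUD1 at 1.01 lie farthest to the right, and PDIA3 and PDIA4 at -0.58 farthest to the left.

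**Figure D2:**
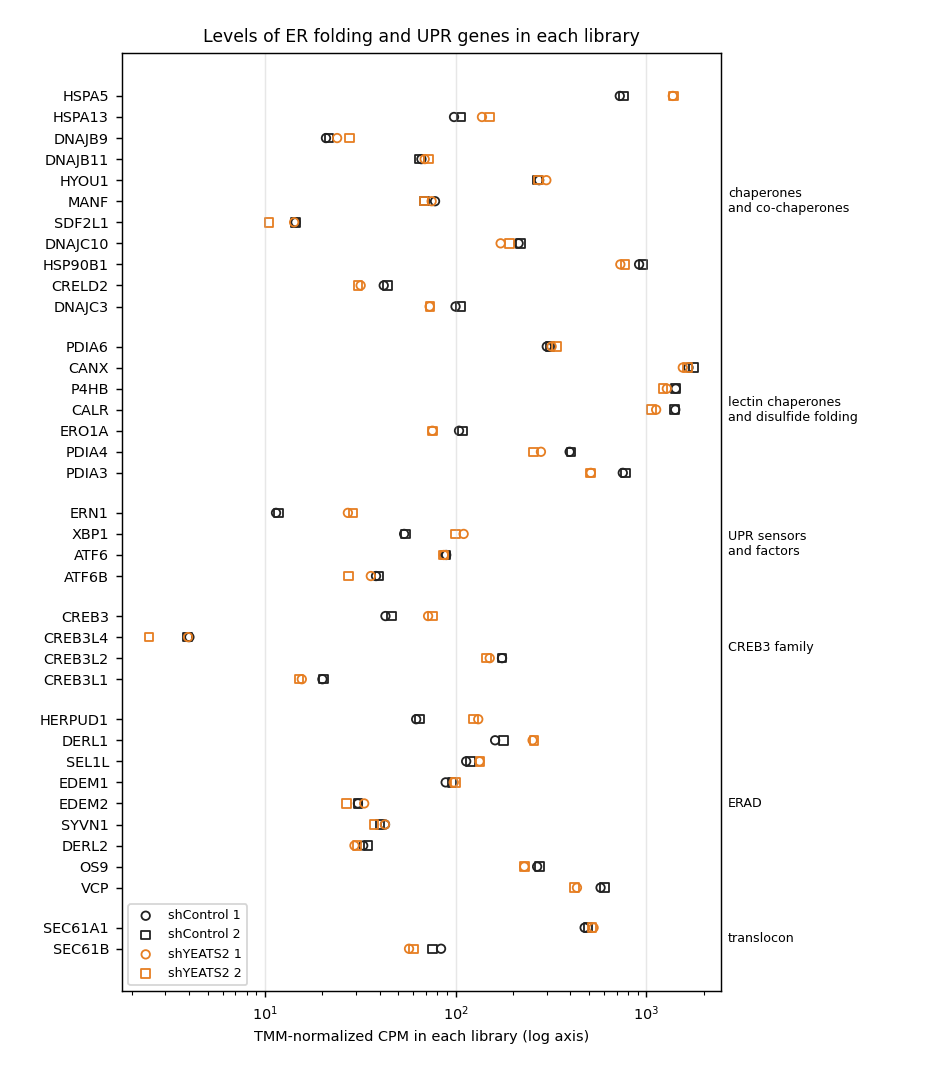
Level of each of the 37 tested genes in each of the 4 libraries, in TMM-scaled CPM on a log axis and grouped by role, with black symbols for shControl and orange for shYEATS2 (circles for library 1, squares for library 2). Both orange symbols lie to the right of both black ones for HSPA5, ERN1, XBP1 and HERPUD1 and to their left for PDIA3 and PDIA4, while for SDF2L1, ATF6B and CREB3L4 shYEATS2 2 lies apart from the other 3 libraries; CPM is not scaled by length, so genes are not to be compared with each other.

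Levels of different genes were compared per length, as TPM (counts per exon length, scaled to the same sum in each library) over the union of each gene's exons in GENCODE release 44, which can understate genes with long rare isoforms. In shControl, CALR was the most abundant at 1513 ± 3.91 TPM (SD, n = 2). P4HB at 384, CANX at 374 and PDIA4 at 364 TPM followed, and neighbours in that order differed by no more than their spread. HSPA5 came next at 341 ± 11.3 TPM. In shYEATS2, HSPA5 stood at 734 ± 19.5 TPM, second to CALR at 1355 ± 97.9 TPM. At the low end, ERN1 measured 1.82 TPM and CREB3L4 measured 4.10 TPM in shControl.

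The promoters of ER genes carry known elements that the UPR factors bind. The ER stress element consists of a CCAAT part, which binds the factor NF-Y, and a CCACG part, which binds ATF6 or XBP1. It was searched as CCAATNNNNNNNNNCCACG on both strands, in RefSeq promoters (GRCh38.p14) that reach from 250 bases before to 50 bases after each start. A second form was searched as ATTGGNCCACG. The 12 matches among the ER genes are shown because they include HERPUD1, XBP1 and HSPA5, which rose, beside genes that fell. Each runs 5′ to 3′ on the strand that reads the element forward, with 8 bases on either side, and capitals mark the 2 parts.
HSPA5: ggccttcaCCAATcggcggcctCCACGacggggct (chr9:125241383-125241417, minus strand)
XBP1: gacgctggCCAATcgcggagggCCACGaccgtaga (chr22:28800595-28800629, minus strand)
HSP90B1: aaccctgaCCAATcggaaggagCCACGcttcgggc (chr12:103930208-103930242, plus strand)
HSP90B1: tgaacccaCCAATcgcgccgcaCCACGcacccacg (chr12:103930313-103930347, minus strand)
CALR: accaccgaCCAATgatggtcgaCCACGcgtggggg (chr19:12938376-12938410, minus strand)
CRELD2: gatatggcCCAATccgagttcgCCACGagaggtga (chr22:49918546-49918580, minus strand)
CANX: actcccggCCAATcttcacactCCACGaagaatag (chr5:179698770-179698804, plus strand)
PDIA6: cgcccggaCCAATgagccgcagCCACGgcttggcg (chr2:10812845-10812879, minus strand)
HERPUD1: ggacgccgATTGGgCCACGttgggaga (chr16:56932017-56932043, plus strand)
HYOU1: ggcctgggATTGGaCCACGtcacgggg (chr11:119057372-119057398, plus strand)
HYOU1: gcgtactcATTGGaCCACGtcccaggc (chr11:119057266-119057292, plus strand)
SDF2L1: gggttttgATTGGtCCACGcttccgag (chr22:21642106-21642132, minus strand)

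Of the 35 ER genes with a promoter entry, 7 (20%) held the ER stress element and 3 (8.57%) held the second form. Among 11002 tested genes with an entry, these 7 and 3 included, the numbers were 16 (0.145%) and 13 (0.118%). Several of these promoters are ones in which the element was first described, so its frequency here is not an independent result. The elements lay at bases -66 to -48 from the start of HSPA5, -52 to -34 of XBP1 and -117 to -107 of HERPUD1. Of genes that fell, CRELD2 held it at -80 to -62, HSP90B1 at -194 to -176 and -89 to -71, and CALR at -225 to -207. Of genes not called, PDIA6 held it at -86 to -68, SDF2L1 at -188 to -178, and HYOU1 at -185 to -175 and -79 to -69. The position of the CANX site depended on the RefSeq start. The 10 genes with either form did not share a direction. HSPA5, XBP1 and HERPUD1 rose, HSP90B1, CALR and CRELD2 fell, and CANX, PDIA6, HYOU1 and SDF2L1 were not called, over a range of -0.45 to 1.01 in log2 fold change. A match is a description of the letters and does not show that a factor bound there.

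The core of the UPR element, TGACGTGG, which XBP1 and ATF6 can bind, was found on either strand in 3 of the 35 promoters (8.57%), those of DNAJC10, VCP and HYOU1, beside 130 (1.18%) of the 11002 tested genes. DNAJC10 and VCP fell and HYOU1 was not called. In HYOU1 this match overlapped the first of the printed elements on the other strand. The CCACG part alone was present in 25 promoters (71.4%), beside 56% of the tested genes.

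**Figure D3:**
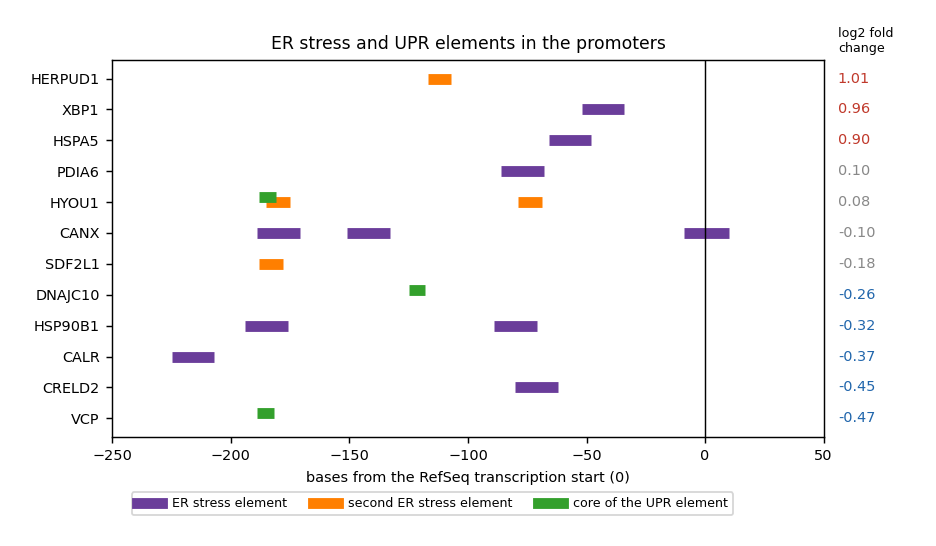
Position of each match in the promoters, in bases from the RefSeq transcription start at 0, with the ER stress element in purple, its second form in orange and the UPR core in green, and the log2 fold change (shYEATS2 minus shControl) at the right of each gene. Genes are ordered by that change from HERPUD1 at 1.01 to VCP at -0.47, matches occur from the top to the bottom of this order, and the 1 site of CANX is drawn at 3 positions because 3 RefSeq starts lie near it.

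Among the chaperones and co-chaperones, 3 of 11 genes rose (27.3%), 4 fell (36.4%) and 4 were not called. Of all tested genes 22.6% were higher and 23.6% lower. The median log2 fold change of the chaperones was -0.03, and -0.13 to 0.061 without each library in turn. With library totals it was 0.11, beside 0.13 for all tested genes, and 3 were lower and 5 higher. HSPA5 (ENSG00000044574, chr9:125234853-125241382), which encodes BiP, the chief ER chaperone and the protein that keeps the UPR sensors silent, measured 725, 758, 1376 and 1386 CPM. Both shYEATS2 libraries were far above both shControl libraries, at 186% of the control level (log2 fold change of 0.90, SE 0.06, adjusted p = 1.5e-21, edgeR's quasi-likelihood test). HSPA13, a second member of the same chaperone family, rose from 98.0 and 106 to 137 and 150.3 CPM (0.49, SE 0.06). DNAJB9, a BiP co-chaperone that restrains IRE1, measured 20.9, 21.6, 23.9 and 27.7 CPM and was called higher at 0.26 with an adjusted p = 0.019 in edgeR. That call was lost with DESeq2 (adjusted p = 0.15) and without shControl 1, shControl 2 or shYEATS2 2 (0.165 without the last).

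HSP90B1 (chr12:103930107-103953931), which encodes the ER form of HSP90, moved opposite to HSPA5. It measured 916, 960.2, 730.3 and 772 CPM, and the groups did not overlap (-0.32, SE 0.06, adjusted p = 4.0e-06, edgeR's quasi-likelihood test). DNAJC3, which encodes the P58IPK co-chaperone, fell from 99.8 and 106 to 73.0 and 73.1 CPM (-0.50, SE 0.07). CRELD2, a secreted ER protein and UPR target, fell from 41.9 and 43.9 to 31.7 and 30.7 CPM (-0.45, SE 0.08). DNAJC10, a co-chaperone that reduces disulfides, measured 214, 219, 172 and 192 CPM (-0.26, SE 0.06) and was lower, a call that was lost when library totals replaced TMM (adjusted p = 0.094, edgeR's quasi-likelihood test).

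The remaining chaperones were not called. HYOU1, a BiP exchange factor, had a log2 fold change of 0.08 (SE 0.06), and its groups overlapped, as did those of MANF (-0.03, SE 0.07), a secreted UPR target. DNAJB11, another BiP co-chaperone, lay at 0.10 (SE 0.07). SDF2L1, its partner, measured 14.5, 14.5, 14.2 and 10.5 CPM, so that shYEATS2 2 was lower than the other 3 libraries (-0.18, SE 0.12, adjusted p = 0.20, edgeR's quasi-likelihood test). Without shYEATS2 1 SDF2L1 was called lower at -0.47.

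In shYEATS2, 5 of the 7 lectin chaperone and disulfide folding genes were lower and none was higher, beside 23.6% lower and 22.6% higher of all tested genes, although PDIA6 was called higher with library totals. Their median log2 fold change was -0.37 (-0.23 with library totals, which gave 4 lower and 1 higher), and their summed level went from 6058 to 6196 CPM in shControl to 5105 to 5142 CPM in shYEATS2. PDIA3 (ENSG00000167004, chr15:43746394-43773279), the isomerase that works with calnexin and calreticulin on glycoproteins, measured 752, 777, 511 and 511 CPM. Its shYEATS2 level was 66.8% of control (-0.58, SE 0.06, adjusted p = 1.6e-13, edgeR's quasi-likelihood test). PDIA4 (ENSG00000155660, chr7:149003062-149028662), an isomerase that binds BiP clients, measured 396, 404, 279.9 and 256 CPM, or 67.1% of control (-0.58, SE 0.06). For both genes the libraries of the groups were well apart.

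CALR (chr19:12938578-12944489), the soluble lectin calreticulin, measured 1417, 1407, 1125 and 1063 CPM (-0.37, SE 0.06, adjusted p = 2.1e-07, edgeR's quasi-likelihood test). CANX, its membrane-bound counterpart calnexin, measured 1662, 1766, 1552 and 1641 CPM, so that the groups were close without overlap (-0.10, SE 0.06), and it was not called. ERO1A, the oxidase that recharges the isomerases, fell from 104 and 108 to 75.5 and 75.7 CPM (-0.49, SE 0.07). P4HB, the main disulfide isomerase and also a subunit of the collagen prolyl hydroxylase, measured 1426, 1421, 1280.3 and 1222 CPM (-0.19, SE 0.06, adjusted p = 0.0062, edgeR's quasi-likelihood test). The P4HB call was lost with library totals (adjusted p = 0.48). PDIA6, an isomerase that acts on IRE1 and BiP clients, had a log2 fold change of 0.10 (SE 0.06) and was not called. About 25.2% of the exon length of PDIA6 overlaps ATP6V1C2 on the other strand, the highest such share among the tested genes, and since the strand setting of the counting was not stated, reads of such partners cannot be told apart.

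Among the UPR sensors and factors, ERN1 and XBP1 rose, ATF6B fell and ATF6 was not called. ERN1 (ENSG00000178607, chr17:64039080-64130819), which encodes the IRE1 kinase and endonuclease, measured 11.4, 11.8, 27.2 and 28.9 CPM. This was the largest change of the 37 tested genes, at 241% of control (1.27, SE 0.10, adjusted p = 1.3e-17, edgeR's quasi-likelihood test). XBP1 (ENSG00000100219, chr22:28794555-28800597), the factor whose message IRE1 splices, measured 53.6, 54.7, 110.0 and 99.95 CPM, or 195% of control (0.96, SE 0.07, adjusted p = 1.2e-19). Both genes had shYEATS2 libraries far above the shControl libraries. Gene counts hold no splice information, so spliced and unspliced XBP1 were not distinguished.

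ATF6, the sensor that is cut in the Golgi, measured 89.2, 88.4, 86.7 and 86.5 CPM (-0.04, SE 0.07) and was not called. ATF6B, its paralogue, measured 38.2, 39.5, 35.9 and 27.4 CPM (-0.26, SE 0.09, adjusted p = 0.012, edgeR's quasi-likelihood test). The ATF6B result rested on shYEATS2 2: the log2 fold change was -0.12 and not called without that library and -0.52 without shYEATS2 1.

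The CREB3 family are membrane-bound factors that are cut and released in a similar way to ATF6. Of the 4 tested 1 rose, 2 fell and 1 was not called, beside 22.6% higher and 23.6% lower of all tested genes. CREB3, the widely expressed founder of the family, rose from 42.8 and 46.1 to 71.6 and 75.6 CPM (0.72, SE 0.07, adjusted p = 1.8e-13, edgeR's quasi-likelihood test). CREB3L1, which drives collagen and secretory genes, fell from 20.0 and 20.3 to 15.6 and 15.1 CPM (-0.39, SE 0.10). CREB3L2, which raises transport genes between ER and Golgi, fell from 175 and 174 to 151 and 145 CPM (-0.24, SE 0.06). The CREB3L2 call was lost with library totals (adjusted p = 0.14, edgeR's quasi-likelihood test). CREB3L4, the member known from prostate, had few reads, with 182, 148, 100 and 29 counts, overlapping groups and a log2 fold change of -0.23 (SE 0.20). CREB3L1, CREB3L2 and DNAJC3 are on a list of genes that the study chose partly on these libraries, so that list is not independent evidence of their direction. The other criterion of the list was a lower level of the histone mark H3K27cr at the promoter after YEATS2 knockdown, from separate ChIP-seq libraries.

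ERAD genes differed in both directions, with 3 of 9 tested genes higher (33.3%), 2 lower (22.2%) and 4 not called, and a median of -0.01. Of all tested genes 22.6% were higher and 23.6% lower. With library totals 4 ERAD genes were higher and 1 lower, and their median was 0.12, beside 0.13 for all tested genes. Both medians were also above 0 with upper quartile scaling. Without shYEATS2 1 the median was -0.16 and without shYEATS2 2 it was 0.079. HERPUD1 (ENSG00000051108, chr16:56932142-56944864), a membrane scaffold of the ERAD ubiquitin ligase and a UPR target, measured 62.0, 64.6, 131 and 124 CPM. Its shYEATS2 level was 202% of control (1.01, SE 0.07, adjusted p = 2.1e-21, edgeR's quasi-likelihood test). DERL1, which helps form the channel through which proteins leave the ER, rose from 161 and 178 to 253 and 257 CPM (0.59, SE 0.06). SEL1L, the adaptor of the ligase, measured 113, 119, 133 and 134 CPM (0.20, SE 0.06, adjusted p = 0.0071). In all 3 genes both shYEATS2 libraries were above both shControl libraries, although the SEL1L call was lost without either shControl library.

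VCP, the ATPase that pulls ERAD substrates into the cytosol, fell from 575 and 604 to 432 and 419 CPM (-0.47, SE 0.06, adjusted p = 3.2e-10, edgeR's quasi-likelihood test). OS9, the lectin that delivers glycoproteins to the ligase, fell from 267 and 276 to 229 and 230.0 CPM (-0.24, SE 0.06). The OS9 call was lost with library totals (adjusted p = 0.11, edgeR's quasi-likelihood test). SYVN1, the ubiquitin ligase HRD1 itself, had a log2 fold change of -0.04 (SE 0.08) and overlapping groups. EDEM1 and EDEM2, which take part in mannose trimming, lay at 0.10 (SE 0.07) and -0.01 (SE 0.09). DERL2, a paralogue of DERL1, measured 32.7, 34.6, 29.4 and 30.4 CPM (-0.17, SE 0.08, adjusted p = 0.085, edgeR's quasi-likelihood test) and was not called. About 77% of the exon length of DERL3 overlaps SMARCB1 on the other strand, and its 4, 0, 1 and 0 counts allow no statement.

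Of the 2 subunits of the translocon, the channel of the ER membrane, SEC61B fell and SEC61A1 was not called. SEC61B, the small beta subunit, measured 83.8, 75.7, 56.9 and 60.2 CPM (-0.45, SE 0.07, adjusted p = 1.8e-07, edgeR's quasi-likelihood test). SEC61A1, which forms the pore, measured 475, 495, 529 and 519 CPM (0.11, SE 0.06, adjusted p = 0.11). The groups did not overlap in either gene.

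The other genes of the pathway were counted in 4 lists. Of 12 tested PERK arm and UPR signalling genes, 7 rose, 3 fell and 2 were not called, with a median log2 fold change of 0.49 (quartiles 0.01 and 1.62), beside 22.6% higher and 23.6% lower among all tested genes. CHAC1, a glutathione-degrading enzyme downstream of ATF4, measured 2.82, 3.39, 25.1 and 23.0 CPM (2.97, SE 0.13). TRIB3, a pseudokinase target of ATF4 and CHOP, measured 22.2, 23.5, 119 and 98.0 CPM (2.26, SE 0.08). DDIT3, which encodes CHOP, measured 12.04, 11.7, 49.5 and 47.01 CPM (2.03, SE 0.09). In all 3 genes the groups were far apart. The list is named for known roles, and whether PERK was the source of these changes was not tested. ATF4 at 1.077 and EIF2AK3, the PERK gene, at 0.07 were chosen after their values were seen, and EIF2AK3 was not called (adjusted p = 0.48, edgeR's quasi-likelihood test).

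The other 3 lists held more lower than higher calls with TMM, but not the folding and ERAD lists with library totals. With TMM 23.6% of all tested genes were lower and 22.6% higher. The folding list had 35.7% lower and 14.3% higher, and the ERAD list 48.1% and 11.1%. The translocation, signal peptidase and glycosylation list had 55.9% and 11.8%. With library totals 15.0% of all tested genes were lower and 31.9% higher, and their median was 0.13. The medians of the 3 lists were below that value. Of 28 tested ER folding genes, 10 fell, 4 rose and 14 were not called, with a median of -0.10 (6 lower, 7 higher and 0.039 with library totals). PPIB, the prolyl isomerase that acts on collagen, fell from 794 and 784 to 405 and 389 CPM (-0.99, SE 0.06), and the membrane thioredoxins TMX4 and TMX1 fell by 0.71 and 0.65 on the log2 scale. Of 27 tested ERAD genes, 13 fell, 3 rose and 11 were not called, with a median of -0.09 (6 lower, 6 higher and 0.043 with library totals), and TXNDC16 and EDEM3, a mannose-trimming enzyme, had log2 fold changes of -0.77 and -0.65. Of 34 tested translocation, signal peptidase and glycosylation genes, 19 fell, 4 rose and 11 were not called, with a median of -0.22 (12 lower, 7 higher and -0.082 with library totals). The oligosaccharyltransferase subunits TUSC3 and TMEM258 had log2 fold changes of -0.59 and -0.51, and the signal peptidase subunit SPCS1 had one of -0.48.

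**Figure D4:**
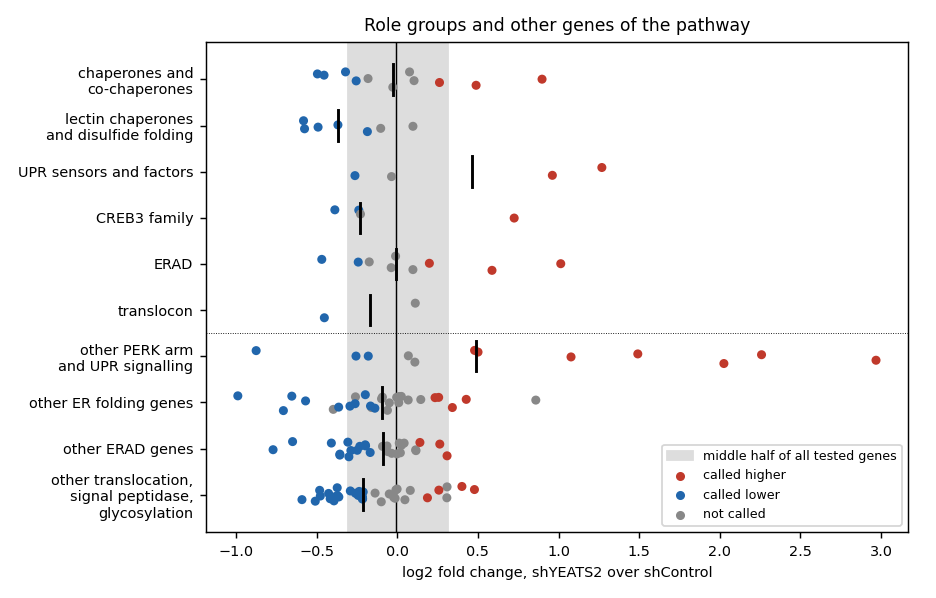
Log2 fold changes (shYEATS2 minus shControl) of the tested genes in each role group and in each of the 4 lists of other pathway genes, with 1 point per gene a black bar at the median and grey shading between the quartiles of all tested genes (-0.31 and 0.32). The medians of the UPR sensors and factors (0.46) and of the PERK arm and UPR signalling genes (0.49) lie above 0. The UPR sensors and factors are 4 genes, of which 2 were higher, 1 was lower and 1 was not called. None of them lies near their median. The other medians lie at or below -0.01. With library totals those of the chaperones, both ERAD lists and the other folding genes are above 0, but the median of all tested genes is then 0.13.

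Across the role groups, the summed level on the CPM scale went up in the chaperones, from 2548 to 2631 CPM in shControl to 3001 to 3054 CPM in shYEATS2, where HSPA5 alone differed by more than the sum did. The sum also went up in the UPR sensors and factors, from 192 to 194 CPM to 243 to 259.8 CPM. For the CREB3 family the sums were 242 to 245 and 238 to 242 CPM, for ERAD 1374 to 1444 and 1358 to 1382 CPM, and for the translocon 558 to 571 and 579 to 586 CPM. Over all 38 genes the sum was 10972 and 11280.3 CPM in shControl and 10613 and 10577 CPM in shYEATS2. On the TPM scale, which weights by length and carries no TMM factor, the order was the opposite, with 5229 and 5321 TPM in shControl and 5965 and 5592 TPM in shYEATS2.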

How the data were processed

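RNA was measured in 4 BICR10 libraries, 2 shControl and 2 shYEATS2, from a stranded poly(A) kit sequenced as paired ends. The deposited files hold whole-number counts per Ensembl gene, which the authors obtained with STAR and HTSeq on GRCh38 per the labels. The annotation release, the strand setting and the aligner version are not given in the sources used here. Tallies of reads given to no gene (15.3 to 16.5% of each file's total) were left out.

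Genes passing filterByExpr (17058) were normalized by TMM. The quasi-likelihood test of edgeR 4.0.16 (robust glmQLFit, then glmQLFTest, R 4.3.3) was applied with Benjamini-Hochberg adjustment over all of them and calls at 0.05. Groups came from the labels. The procedure was tested on simulated data in which few genes changed, equally in both directions. In these data many genes were called, so that simulation does not test the choice of scaling. Replicates differed by more than counting noise (chi-square per degree of freedom of 5.95 and 5.39), and the common biological coefficient of variation was 4.95%. An exact permutation test of 2 against 2 cannot go below a two-sided p of 0.333. Each ± is an SD of 2 libraries. Lengths and positions came from GENCODE release 44, and promoter sequences from RefSeq (GRCh38.p14), which held 35 of the 38 genes. Exons of 20 of the 38 genes overlap a gene on the other strand, for 14 of them a protein-coding one.

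All 38 genes were named, and from each list of other genes the 3 called genes with the largest change that averaged 10 CPM or more and whose groups did not overlap. One gene that this rule names is not reported here. The genes and lists were chosen with earlier results of these data known. Alternatives were DESeq2 1.42.0, other scalings, filters and thresholds, thinning to equal depth, a replicate block and leaving out each library.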

Additional observations from a re-analysis of the deposited data

How the results depend on the processing

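No called ER gene changed sign, and 17 of the 24 kept their call under each alternative run, among them HSPA5 (0.85 to 1.03), ERN1 (1.22 to 1.40), XBP1 (0.87 to 1.10), HERPUD1 (0.95 to 1.15) and PDIA3 (-0.63 to -0.45). With library totals alone, 2567 of all genes were lower in place of 4019, and 14 ER genes were higher in place of 9. The median of the ER genes was 0.030, beside 0.13 over all tested genes. With that scaling CANX (0.030), MANF (0.11), ATF6 (0.10), SYVN1 (0.10) and EDEM2 (0.12) changed sign. ATF6B also lost its call (adjusted p = 0.29, edgeR). DESeq2 found 2393 of all genes higher in place of 3857 and lost ATF6B (adjusted p = 0.089) and DNAJB9. Without a low-count filter the ER median was -0.19, beside -0.10 over the 33310 genes then tested. DNAJB9 (adjusted p = 0.10) and SEL1L (0.087) then lost their calls in edgeR. Thinning to equal depth left all 24 calls in place and turned the uncalled MANF (0.046) and EDEM2 (0.032). Upper quartile scaling turned EDEM2 (0.00135). Leaving out each library gave 3062 to 4051 lower and 2604 to 3677 higher genes in all, 13 to 17 lower and 7 to 9 higher ER genes, an ER median of -0.16 to -0.031 and a YEATS2 log2 fold change of -1.21 to -1.19. It changed the sign of HYOU1 (-0.011 to 0.14), MANF (-0.13 to 0.061), SYVN1 (-0.16 to 0.033) and EDEM2 (-0.21 to 0.10), none of them called at first. P4HB, SEL1L and DNAJB9 lost their calls without either shControl library, ATF6B without shControl 2, and DNAJB9 and ATF6B without shYEATS2 2. CREB3L4 (-0.70) and SDF2L1 gained calls without shYEATS2 1, as did HYOU1 (adjusted p = 0.031), CANX (0.015) and DERL2 (0.040) in edgeR without shYEATS2 2. Replicate numbers did not pair the libraries (their deviations correlated at -0.018), and a replicate block left 15 lower and 9 higher ER genes, with 4142 lower and 3870 higher in all. The cause of the changes was not tested. The shYEATS2 2 library held 11334133 counts, of which 29 were on CREB3L4.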

Other observations

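The ratio of reads on one ER gene to reads on another within a library is free of the library's scaling. The following pairs were chosen after their values were seen, and the ratios were not tested. HSPA5 had 0.792 and 0.789 reads per read on HSP90B1 in shControl and 1.88 and 1.80 in shYEATS2. XBP1 had 0.602 and 0.619 reads per read on ATF6 in shControl and 1.27 and 1.16 in shYEATS2. HERPUD1 had 0.108 and 0.107 reads per read on VCP in shControl and 0.304 and 0.295 in shYEATS2. In each pair the shYEATS2 libraries were above both shControl libraries. The same held between paralogues, with 4.92 and 5.15 reads on DERL1 per read on DERL2 in shControl and 8.60 and 8.45 in shYEATS2. CREB3 had 0.245 and 0.264 reads per read on CREB3L2 in shControl and 0.475 and 0.522 in shYEATS2.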
